A study of Mus musculus with 14 samples.

Results

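The levels of 8 mast cell genes were followed through RNA-seq of mouse lower urinary tract epithelium. They were taken by symbol from count tables of 55228 gene rows, and all 8 were found. The list holds 5 granule proteases (Cma1, Mcpt4, Cpa3, Tpsb2 and Tpsab1), the beta chain of the high-affinity IgE receptor (Ms4a2), histidine decarboxylase, which makes histamine (Hdc), and the receptor of stem cell factor (Kit). The genes were chosen with their values in these libraries in view, so their levels, folds and standard errors are a description and carry no p.

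All libraries came from untreated wildtype CD-1 mice, an outbred strain, and held the epithelium of female embryos pooled within a litter. Embryonic day 14.5 (E14.5) gave 4 bladder and 4 urethral libraries, and E18.5 gave 3 of each. Bladders and urethras were loosened in trypsin, cut apart, and the epithelium was pulled from the mesenchyme with forceps, so cells of other layers can be carried along and no cell was sorted. The labels name the cells epithelial, and Epcam, an epithelial adhesion molecule, stood at 447 and 391 CPM (counts per 1 M counts of the library) in bladder and urethra at E14.5 and at 283 and 580 CPM at E18.5. Each stage has its own table, so a batch and the stage cannot be told apart.

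Mast cells are resident cells of connective tissue that store histamine, heparin-like proteoglycans and proteases in granules and release them when IgE on their surface is crosslinked. They leave the blood as progenitors and mature in the tissue under stem cell factor, which binds Kit. Chymases (Cma1, Mcpt4), tryptases (Tpsb2, Tpsab1) and carboxypeptidase A3 (Cpa3) mark the granular, connective tissue type. Kit and Hdc are not theirs alone: germ cells, melanocytes, blood progenitors, interstitial cells of Cajal and some epithelia carry Kit, and basophils and other myeloid cells make histamine.

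The proteases were near 0 at E14.5, high in all bladder libraries at E18.5 and low in the urethra of the same stage. Cma1, Cpa3, Mcpt4 and, at low counts, Ms4a2 all stood highest in the E18.5 bladder libraries, so the DNA before them is shown. The windows hold 250 bases ahead of the transcription start and 50 after it, on the strand of the gene, from RefSeq on GRCm38.p6. RefSeq promoter entries matched 6 of the 8 genes. Capitals mark AGATAA and TGATAA, words that GATA factors can bind, read on both strands. Other forms of the GATA word, such as AGATAG and TGATAG, were neither searched nor marked. Cma1 (chr14:55944626-55944925, minus strand) held no AGATAA or TGATAA in this window. Cpa3 (chr3:20242132-20242431, minus strand) held 1, Mcpt4 (chr14:56062261-56062560, minus strand) held 1 and Ms4a2 (chr19:11623670-11623969, minus strand) held 3.
Cma1: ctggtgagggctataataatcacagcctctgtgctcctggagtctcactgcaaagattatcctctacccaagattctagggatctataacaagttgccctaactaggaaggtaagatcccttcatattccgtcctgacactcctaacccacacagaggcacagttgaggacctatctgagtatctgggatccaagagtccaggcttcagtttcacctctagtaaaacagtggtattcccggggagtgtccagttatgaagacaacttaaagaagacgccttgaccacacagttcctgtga
Cpa3: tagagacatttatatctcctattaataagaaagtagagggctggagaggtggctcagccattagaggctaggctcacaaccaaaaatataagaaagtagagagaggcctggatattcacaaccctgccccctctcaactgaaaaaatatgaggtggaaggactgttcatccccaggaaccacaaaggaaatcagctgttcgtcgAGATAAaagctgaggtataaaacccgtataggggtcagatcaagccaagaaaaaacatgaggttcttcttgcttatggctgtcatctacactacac
Mcpt4: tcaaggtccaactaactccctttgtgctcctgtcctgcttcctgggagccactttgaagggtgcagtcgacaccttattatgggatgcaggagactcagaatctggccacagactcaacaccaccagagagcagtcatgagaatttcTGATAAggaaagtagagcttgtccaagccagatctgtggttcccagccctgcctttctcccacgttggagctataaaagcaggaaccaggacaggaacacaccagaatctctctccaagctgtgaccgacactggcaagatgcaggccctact
Ms4a2: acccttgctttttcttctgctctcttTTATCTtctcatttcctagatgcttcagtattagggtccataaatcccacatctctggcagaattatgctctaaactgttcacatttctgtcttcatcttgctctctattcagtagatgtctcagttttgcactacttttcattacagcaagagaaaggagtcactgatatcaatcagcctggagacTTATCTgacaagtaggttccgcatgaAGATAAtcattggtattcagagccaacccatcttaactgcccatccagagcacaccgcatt

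The word in Cpa3 began 46 bases before the start and that in Mcpt4 103 bases before it. Those in Ms4a2 began 224, 37 and 11 bases before it, and the first and second were on the opposite strand. Of 27025 mouse promoters of this length, 5122 (19.0%) held at least 1 such word and 931 held at least 2. The windows of Hdc and of the first listed start of Kit held no AGATAA or TGATAA. The words CATGTG and CACGTG, which the factor Mitf can bind, stood in none of the 6 windows on either strand. Of all windows 5538 (20.5%) held at least 1 of them. The word TATAAA, the core of the TATA box, stood on the gene's strand 31 bases before the start of Cpa3 and 32 before that of Mcpt4, and 8.88% of all windows held it. It overlapped no GATA word. A match of letters is not shown to be a bound site.

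The proteases belong to clusters of related genes, so the sharing of sequence was checked. Cma1 (GRCm38 chr14:55941451-55944675) and Mcpt4 (chr14:56059629-56062313), both on the minus strand, lie 114953 bases apart. Tpsb2 (chr17:25366305-25369098, plus strand) and Tpsab1 (chr17:25343245-25345562, minus strand) lie 20742 bases apart. In GENCODE M21 transcripts the coding sequences of Cma1 and Mcpt4 were identical at 71.3% of aligned bases and those of Tpsb2 and Tpsab1 at 77.1%. Their longest shared runs, both inside the coding sequence, show how short the identical stretches are beside a read of 100 bases.
Cma1 and Mcpt4: atacaagggagactctggaggacctct
Tpsb2 and Tpsab1: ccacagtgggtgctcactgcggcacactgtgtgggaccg

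These runs were 27 and 39 bases long. No window of 100 bases was shared by Cma1 and Mcpt4 or by Tpsb2 and Tpsab1. Mcpt4 shared 1 of its 1009 windows with Cma2 and none with Mcpt1, Mcpt2 or Mcpt9, although its coding sequence was 87.0% identical to that of Mcpt1. Reads that fit several of these genes by mismatch were not examined, and the counting rule for them is not given in the sources used here. Tpsab1 is listed as a transcribed pseudogene in RefSeq, whose reference is another strain, and as protein coding in GENCODE. None of the 8 genes overlapped a gene on the opposite strand. Cpa3 (chr3:20215620-20242181, minus strand) holds the microRNA gene Mir7007 on its own strand. Ms4a2 (chr19:11615523-11623719), Hdc (chr2:126593667-126619299) and Kit (chr5:75574916-75656722) are on the minus, minus and plus strands.

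Library totals were 21.1 to 36.8 M counts, with 21966 to 24258 genes detected. Among counts of 1 to 10, 65.9 to 70.4% were even, against 49.5 to 50.7% of counts over 100, a pattern in which 1 read pair gives 2 counts. The limit that a group at 0 allows was therefore set at 3 read pairs, or 6 counts over the group, and it covers counting error alone. CPM are scaled by the trimmed mean of M values. In bulk tissue, fewer cells of a type and less RNA per cell cannot be told apart.

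Cma1, mast cell chymase, had 0.0620, 0, 0, and 0 CPM in the 4 E14.5 bladder libraries and 0, 0.246, 1.04 and 0 CPM in the 4 E14.5 urethral libraries. At E18.5 it had 42.3, 61.2 and 32.8 CPM in bladder and 0.342, 2.41 and 1.57 CPM in urethra. The 3 E18.5 bladder libraries stood above all 11 others. The mean was 45.4 ± 14.4 CPM (SD, n = 3) in bladder and 1.44 ± 1.04 CPM (SD, n = 3) in urethra at E18.5, a 31.6-fold difference and a log2 fold change of 4.86 (SE 0.51). Against the 2 counts of all E14.5 bladder libraries, the ratio of summed counts was 2781, with a 95% counting interval of 498 to 109900. In urethra the E18.5 mean was 4.46 times the E14.5 mean, with overlapping libraries (log2 fold change 2.15, SE 0.88, and 4.11 without urethral replicate 3 of E14.5).

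Cpa3, which trims peptides in the granule, had 0.0620, 0, 0.276 and 0 CPM in E14.5 bladder and 0, 1.03, 0.442 and 0.315 CPM in E14.5 urethra. It had 45.1, 60.7 and 38.9 CPM in E18.5 bladder and 0.0854, 2.15 and 1.65 CPM in E18.5 urethra. All E18.5 bladder libraries again lay above all others, while the urethral libraries of both stages overlapped. The E18.5 bladder mean was 37.3 times the urethral mean (log2 fold change 5.08, SE 0.60) and 571 times the E14.5 bladder mean (48.2 and 0.0845 CPM). That stage difference, 9.34 on the log2 scale, was 10.9 without bladder replicate 3 of E14.5, which held 6 of the group's 8 counts.

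Tpsb2, a tryptase that forms tetramers on heparin, had 0 counts in all E14.5 bladder libraries and 17 counts (0.682 CPM) in E14.5 urethral replicate 3 alone. At E18.5 it had 30.2, 47.6 and 19.9 CPM in bladder and 0.256, 2.59 and 1.12 CPM in urethra. Bladder and urethra did not overlap at E18.5, with a 24.7-fold difference of means (log2 fold change 4.51, SE 0.62, and 5.38 without urethral replicate 2). E18.5 bladder was at least 645-fold higher than E14.5 bladder.

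Mcpt4, the main chymotrypsin-like chymase of mouse connective tissue mast cells, had 0 counts in all 8 E14.5 libraries. It had 10.3, 7.16 and 4.77 CPM in E18.5 bladder and 0.0854, 0.764 and 0.168 CPM in E18.5 urethra. The E18.5 tissues did not overlap, with a 21.9-fold difference of means (log2 fold change 4.32, SE 0.66, and 5.68 without urethral replicate 2). Against E14.5 it was at least 147-fold higher in bladder and at least 5.51-fold higher in urethra. Its order among the bladder replicates was not that of Cma1, Cpa3 and Tpsb2, which were highest in replicate 2.

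Tpsab1 was the faintest protease, with 41, 49 and 6 counts in E18.5 bladder, 0, 2 and 4 counts in E18.5 urethra, 2 counts in E14.5 urethral replicate 3 and 0 in the other E14.5 libraries. It did not pass the expression filter in any comparison. Its summed counts at E18.5 gave a bladder to urethra ratio of 22.1, with a 95% counting interval of 7.11 to 111. Replicate 3 held 0.295 CPM and the other bladder libraries 1.95 and 1.87 CPM.

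Ms4a2, which amplifies the signal of the IgE receptor, was near the limit of detection. It had 11, 22 and 10 counts in E18.5 bladder (0.523, 0.838 and 0.492 CPM) and 0 in all E18.5 urethral libraries, so bladder was at least 9.60-fold higher. At E14.5 it had 2 counts in bladder replicate 4 and 4 and 6 counts in urethral replicates 2 and 3. The ratio of E18.5 to E14.5 bladder was 37.8, with a 95% counting interval of 6.10 to 1562. In urethra the change was toward E14.5, with a log2 fold change of -4.52 (SE 1.79) and overlapping libraries.

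**Figure D1:**
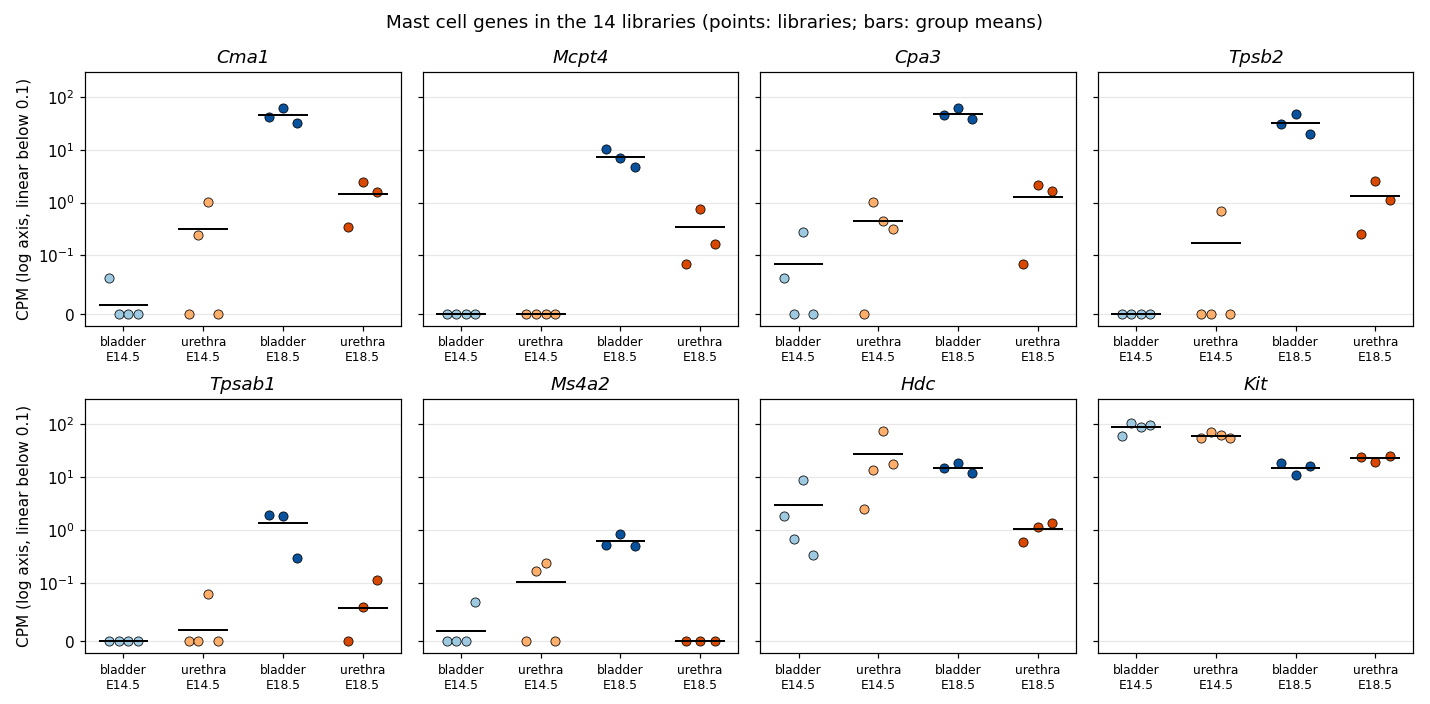
CPM of each of the 8 mast cell genes (vertical axis, log scale, linear below 0.1) in every library, by tissue and stage; points are libraries and bars are group means. The 5 proteases and Ms4a2 stand highest in the 3 E18.5 bladder libraries, while Hdc is highest in an E14.5 urethral library (74.7 CPM) and Kit in the E14.5 bladder (59.4 to 107 CPM).

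Hdc followed another order. It had 1.86, 0.683, 8.97 and 0.336 CPM in E14.5 bladder and 2.46, 13.8, 74.7 and 17.6 CPM in E14.5 urethra. At E18.5 it had 14.9, 18.4 and 11.95 CPM in bladder and 0.598, 1.12 and 1.37 CPM in urethra. Urethral replicate 3 of E14.5 was the highest library of all, and the tissues overlapped at that stage (means 2.96 and 27.1 CPM). The E14.5 log2 fold change of bladder over urethra was -3.26 (SE 1.23), and it was -1.97 without that urethral library. It was -4.85 without bladder replicate 3 and -3.65 without urethral replicate 1.

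At E18.5 the tissues did not overlap for Hdc and the order was the opposite, with 14.6-fold more in bladder (log2 fold change 3.78, SE 0.33). In urethra Hdc was 26.4-fold lower at E18.5 than at E14.5 (log2 fold change -4.69, SE 1.23) and the stages did not overlap. The change was -3.40 without urethral replicate 3 of E14.5. In bladder it was 5.08-fold higher at E18.5, again without overlap (log2 fold change 2.38, SE 1.02), and 3.96 on that scale without bladder replicate 3 of E14.5. With the mean log2 CPM of 15 mesenchyme genes as a covariate, that bladder change was -3.28 and did not pass the threshold. Summed mesenchyme CPM did not overlap between the bladder stages (1165 to 4809 at E14.5, 19920 to 30510 at E18.5). Mesenchyme and stage thus go together in bladder, and no direction is drawn from that value. Replicate 3 of either tissue at E14.5 was also the library of its group with the highest macrophage sum (74.4 and 104 CPM). The same libraries were highest in mesenchyme (4809 and 6937 CPM), pan-leukocyte (23.9 and 30.3 CPM) and endothelial genes (136.8 and 226.8 CPM). So they were in erythroid genes (643.5 and 735.8 CPM) and in the 5 proteases (0.276 and 2.25 CPM). The part of other cells in the Hdc values was not tested.

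Kit had 59.4, 107, 87.9 and 97.9 CPM in E14.5 bladder and 55.2, 72.0, 62.0 and 55.8 CPM in E14.5 urethra. It had 18.1, 10.8 and 16.1 CPM in E18.5 bladder and 24.1, 19.6 and 24.7 CPM in E18.5 urethra. Both tissues were lower at E18.5 with no overlap, by 5.87-fold in bladder (log2 fold change -2.56, SE 0.22) and by 2.69-fold in urethra (log2 fold change -1.43, SE 0.21). Within E18.5 Kit was the 1 gene of the 8 with more in urethra, by 1.52-fold (log2 fold change -0.66, SE 0.22). That difference was -0.44 without bladder replicate 2 and -0.23 under scaling by 7 epithelial genes. At E14.5 the tissues overlapped (88.1 ± 20.8 and 61.2 ± 7.81 CPM, SD, n = 4 each), with a log2 fold change of 0.49 that epithelial scaling turned to -0.51.

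In bladder the proteases were higher and Kit lower at E18.5. Kit CPM per protease CPM was 0.0603 to 0.167 in E18.5 bladder and 2.47 to 31.3 in E18.5 urethra. In the 5 E14.5 libraries with any protease count it was 27.6 to 479. Those ratios rest on 4 to 56 protease counts per library, with 4 counts under the highest, and libraries at 0 have no ratio. Across the 14 libraries the log2 CPM of Kit had a Pearson r of -0.88 with Cma1 and -0.82 with Cpa3, and Hdc had 0.41 and 0.52. Cma1 had 0.99 with Tpsb2, 0.95 with Cpa3, 0.95 with Mcpt4 and 0.81 with Ms4a2. These are descriptions over libraries of 4 groups, which share tissue and stage.

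**Figure D2:**
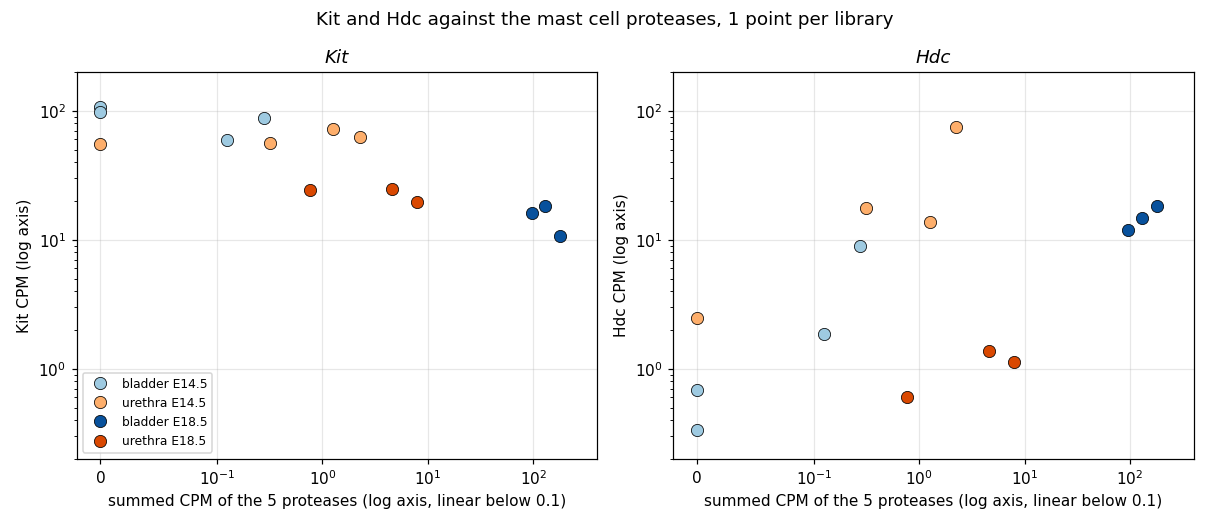
CPM of Kit (left) and Hdc (right) on log axes against the summed CPM of the 5 proteases (log axis, linear below 0.1), 1 point per library, coloured by tissue and stage. The E18.5 bladder libraries sit at 96.6 to 178 protease CPM with 10.8 to 18.1 CPM of Kit, and the E14.5 libraries at 0 to 2.25 protease CPM with 55.2 to 107 CPM of Kit.

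Counts per length let the genes be ranked. In E18.5 bladder the level in CPM per kilobase of exon was 41.7 ± 13.3 for Cma1, 31.8 ± 7.43 for Cpa3, 20.4 ± 8.80 for Tpsb2, 6.70 ± 2.52 for Mcpt4, 2.36 ± 0.50 for Hdc, 1.69 ± 0.43 for Kit, 0.654 ± 0.445 for Tpsab1 and 0.220 ± 0.068 for Ms4a2 (SD, n = 3). Neighbours in this order lay within their spread from Cma1 to Cpa3, from Cpa3 to Tpsb2, from Hdc to Kit and from Tpsab1 to Ms4a2, by overlap of mean ± SD. Within each E18.5 bladder library, though, Cma1 stood above Cpa3, Cpa3 above Tpsb2 and Hdc above Kit. In replicate 3 Ms4a2 (0.175) stood above Tpsab1 (0.141). At E14.5 the order was another one, with Kit at 9.89 and 6.87 CPM per kilobase in bladder and urethra, Hdc at 0.464 and 4.25, and no protease above 0.296.

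The share of each protease had overlapping ranges in the tissues at E18.5. Of the 5 genes' counts per kilobase, Cma1 held 39.7 to 42.1% in bladder and 37.1 to 51.6% in urethra. Cpa3 held 30.0 to 35.3% and 9.27 to 31.7%, Tpsb2 17.2 to 22.4% and 20.5 to 27.2%, and Mcpt4 4.84 to 9.54% and 4.41 to 12.7%. Tpsab1 held 0.194 to 0.953% and 0 to 1.56%. These shares were not tested, and urethral replicate 1 rests on 18 protease counts.

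**Figure D3:**
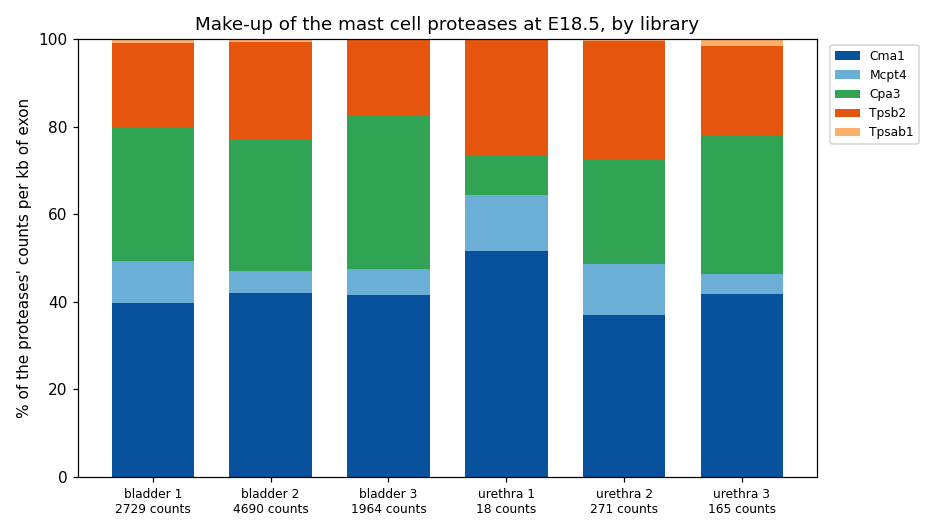
Share of each protease in the 5 genes' counts per kilobase of exon (vertical axis, percent) in the 6 E18.5 libraries, with the summed protease counts under each bar. Cma1 takes 37.1 to 51.6% in every library, and the urethral bar with 18 counts is the one with the least Cpa3 (9.27%).

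At E18.5, 7 of the 8 genes passed the expression filter. The threshold of an adjusted p under 0.05 was passed by 37.9% of all 17513 genes tested. It was passed with more in bladder by 6 of the 7, beside 19.3% of all genes, and with more in urethra by Kit, beside 18.6%. Kit did not pass without bladder replicate 2 or 3 or urethral replicate 1 or 3 of E18.5. Nor did it pass under scaling by epithelial genes or with a mesenchyme covariate. Between the stages in bladder (40.3% of all genes called in either direction) 5 of 7 passed as higher at E18.5, beside 19.9% of 18286 genes, and Kit as lower, beside 20.4%. In urethra (33.0% called) 1 of 7 (Mcpt4) passed as higher at E18.5, beside 17.3% of genes, and 2 (Hdc and Kit) as lower, beside 15.7%. Without urethral replicate 3 of E14.5 or replicate 1 of E18.5, 3 passed as higher in urethra, Cma1 and Tpsb2 being added. At E14.5 only Hdc and Kit passed the filter. Neither passed the threshold in the main edgeR fit, beside 44.0% of 16697 genes in either direction. DESeq2 called both, as did edgeR with the replicate number as a block, and some other settings called 1 of them. For the interaction, the tissue difference at E18.5 less that at E14.5 (22.9% called), 5 of 7 were positive beside 12.2% of genes and Kit was negative (-1.13, SE 0.29) beside 10.7%. Tpsb2 was not among the 5 without urethral replicate 3 of E14.5, which moved its value from 9.86 to 4.61. Mcpt4 was at 0 in both E14.5 groups, so its E14.5 tissue difference cannot be estimated. It had no usable standard error in that edgeR fit and its value is not given. DESeq2 called it, but that call has the same limit and is not read as an interaction. The genes were chosen on these values, so nothing is read from the counts.

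Several lists of markers of other cells were higher in E18.5 bladder than urethra, as the proteases were. Genes counted as higher passed an adjusted p under 0.05 in edgeR, which 19.3% of all genes did toward bladder. At E18.5 the summed CPM of the 15 mesenchyme genes was 25410 ± 5306 in bladder and 5214 ± 510 in urethra (SD, n = 3), and 12 of the 15 were higher in bladder, with Col1a1, a fibroblast collagen, at 7833 and 1398 CPM. The 11 macrophage genes summed to 433 ± 81.2 and 98.9 ± 7.98 CPM with 10 higher in bladder, among them Csf1r, the macrophage growth factor receptor, at 59.2 and 17.9 CPM. The 6 pan-leukocyte genes summed to 89.5 ± 18.6 and 27.9 ± 3.21 CPM with all 6 higher in bladder, among them Ptprc (CD45) at 6.92 and 2.44 CPM. Of 10 endothelial genes 9 were higher in bladder, with Pecam1 at 88.4 and 13.7 CPM. The 8 smooth muscle genes summed to 9320 ± 4020 and 1624 ± 660 CPM, with all 8 higher in bladder. None of these lists overlapped between the tissues at E18.5 in its sum, and their part in the protease values was not tested.

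The 5 proteases summed to 135 ± 41.2 CPM in bladder and 4.45 ± 3.60 CPM in urethra at E18.5, a 30.4-fold difference. Per 1000 CPM of mesenchyme genes they stood at 4.26, 6.92 and 4.85 in bladder and at 0.162, 1.56 and 0.800 in urethra, a 6.37-fold difference of means without overlap. Per CPM of pan-leukocyte genes they stood at 1.26 to 1.84 and 0.0246 to 0.320, an 8.82-fold difference, and per macrophage CPM the difference was 6.64-fold. At E14.5 the proteases were at 0 to 0.341 per 1000 mesenchyme CPM, in libraries with 1165 to 6937 CPM of those genes. The E14.5 urethra (3156 to 6937 CPM) overlapped the E18.5 urethra (4759 to 5765 CPM) in mesenchyme.

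With the mesenchyme score (the mean log2 CPM of its 15 genes) as a covariate, the log2 fold changes at E18.5 were 2.75 for Cma1, 3.30 for Cpa3, 1.59 for Tpsb2, 1.49 for Mcpt4 and 2.38 for Hdc, all toward bladder, and Kit stood at -0.35. Ms4a2, at low counts, stood at 6.30. That fit called none of the 7 and 3 of 17513 genes in all. In the stage comparison of bladder the values were 5.10 for Cma1, 4.76 for Cpa3, 5.51 for Tpsb2, 6.14 for Mcpt4 and 2.98 for Ms4a2. Hdc stood at -3.28 and Kit at -2.01. Of these 7 only Kit passed the threshold, in a fit that called 315 of 18286 genes.

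**Figure D4:**
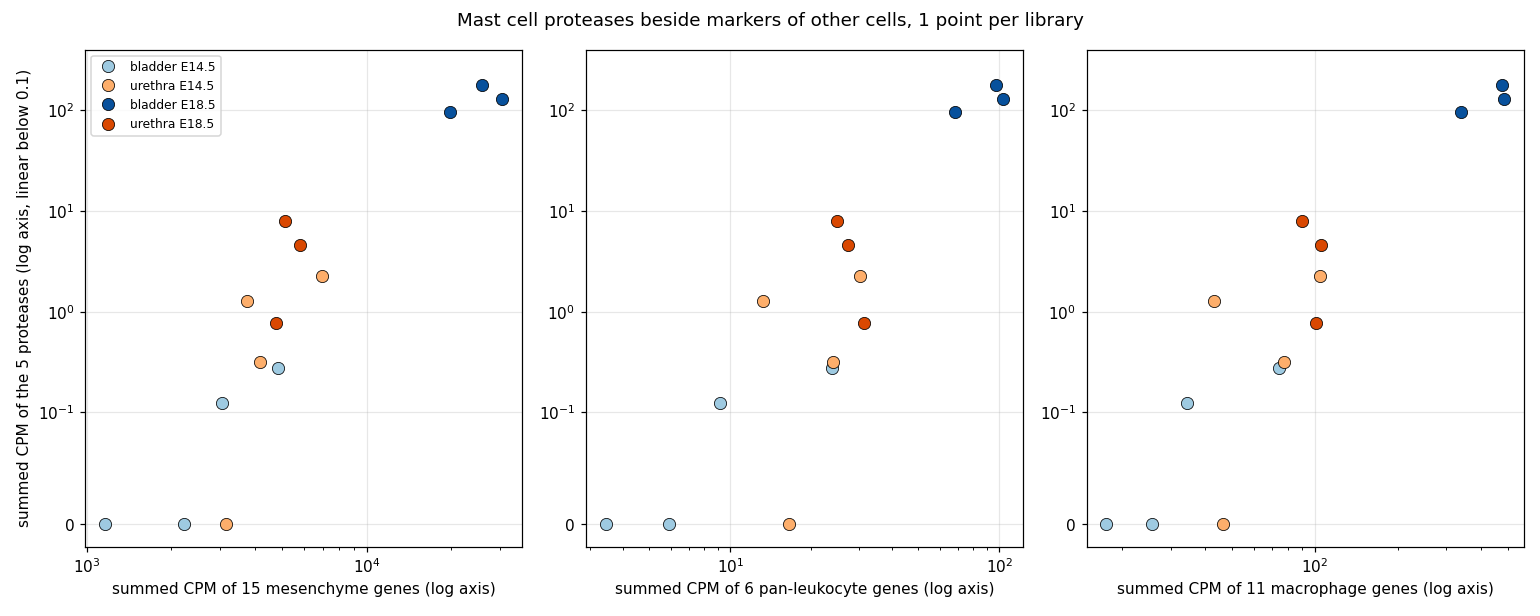
Summed CPM of the 5 proteases (vertical axis, log scale, linear below 0.1) against the summed CPM of 15 mesenchyme genes, 6 pan-leukocyte genes and 11 macrophage genes (horizontal axes, log scale), 1 point per library. The 3 E18.5 bladder libraries stand apart on both axes, at 96.6 to 178 protease CPM and 19920 to 30510 mesenchyme CPM, and the E18.5 urethral libraries reach 7.96 protease CPM at 4759 to 5765 mesenchyme CPM.

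Cells that share single members were looked at by their defining genes. The basophil proteases Mcpt8 and Prss34 had 29 and 135 counts in the E18.5 bladder libraries together, and 0 and 21 in the urethral ones. With Cd200r3 they form a basophil list of 3 genes. Its sum in bladder and urethra was 4.47 and 0.416 CPM at E14.5, and 9.17 and 1.11 CPM at E18.5. The tissues did not overlap in this sum at either stage, so bladder was already the higher at E14.5, unlike for the proteases. The melanocyte gene Dct, an enzyme of pigment synthesis, had 0 counts in bladder at both stages and 2 in urethra at each stage, and Tyr had 0 in all libraries. Pmel, a pigment granule protein, was present at 5.57 and 1.45 CPM in bladder and urethra at E14.5, and Sox10, a neural crest factor also of glia, at 1.82 and 4.69 CPM. The melanocyte list summed to 4.805 to 9.02 CPM over the E14.5 libraries and 4.14 to 9.25 CPM at E18.5. Ano1, a chloride channel that marks interstitial cells of Cajal and is also made by epithelia, was at 252 and 33.8 CPM in bladder and urethra at E14.5 and at 193 and 112 CPM at E18.5. Etv1, a factor of the same cells, was at 10.1 and 17.9 CPM at E14.5 and at 12.1 and 17.4 CPM at E18.5. Erythroid genes summed to 1085 and 356 CPM at E18.5 and the 4 megakaryocyte genes to 43.4 and 77.3 CPM, with overlap. The platelet chemokines in that list went opposite ways, Pf4 at 39.2 and 2.64 CPM and Ppbp at 0.920 and 66.6 CPM (13.1 to 102 CPM over the urethral libraries). Their part in Kit and Hdc was not tested.

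The wider set of mast cell genes held 41 further genes, of which 40 were in the tables. They too were listed with earlier results of these data known. Here and below, their counts and adjusted p are therefore a description and not an independent test. At E18.5, 27 were tested. At an adjusted p under 0.05, 17 were higher in bladder and 2 in urethra, beside 19.3 and 18.6% of all genes. The median log2 fold change was 0.87 beside -0.03 for all genes tested. Scaling by 7 epithelial genes moved the median of all genes at E18.5 to 0.39, and the split stayed at 17 and 2.

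Among receptors and IgE signalling genes 7 of the 11 tested were higher in E18.5 bladder and 1 lower. Fcer1a, the IgE-binding chain, had 30 to 42 counts in each E18.5 bladder library (1.53 ± 0.09 CPM, SD, n = 3), 2 counts in all urethral ones, and 0 at E14.5. Its summed counts were 71.7 times those of urethra, with a 95% counting interval of 12.3 to 2886 (adjusted p = 0.000506). Fcer1g, the signalling chain that macrophages also use, was at 7.74 and 2.43 CPM (log2 fold change 1.61, SE 0.24, adjusted p = 0.00110). Il3ra, the interleukin-3 receptor, was at 15.9 and 4.43 CPM (adjusted p = 0.000218). Enpp3, the surface enzyme CD203c, went the other way, at 11.95 and 27.2 CPM (log2 fold change -1.24, SE 0.22, adjusted p = 0.00312). The itch and drug receptors Mrgprb1 and Mrgprb2, chosen here after their values were seen, had 28 counts each over the 3 E18.5 bladder libraries, 0 and 2 counts in urethra, and 0 in all E14.5 libraries.

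Of 13 granule and mediator genes 8 were higher in E18.5 bladder and 1 lower. Srgn, the proteoglycan core that holds proteases in the granule, was at 15.7 and 3.20 CPM (log2 fold change 2.23, SE 0.23, adjusted p = 0.000199). The exception, Tph1, which starts serotonin synthesis, was at 0.279 and 12.4 CPM, a 44.4-fold difference toward urethra (adjusted p = 0.000269). Of the transcription factors Gata2, which mast cells need and which epithelia also carry, was at 205 and 115 CPM (log2 fold change 0.78, SE 0.17, adjusted p = 0.00771). Mitf stood at 4.31 and 5.87 CPM and did not pass (adjusted p = 0.225). Gata1, a factor of mast and red cells, had 14 and 2 counts and was not tested. None of the 8 further proteases was tested in any comparison; Mcpt9 had 0 counts in all libraries and Mcpt10 was not in the tables.

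**Figure D5:**
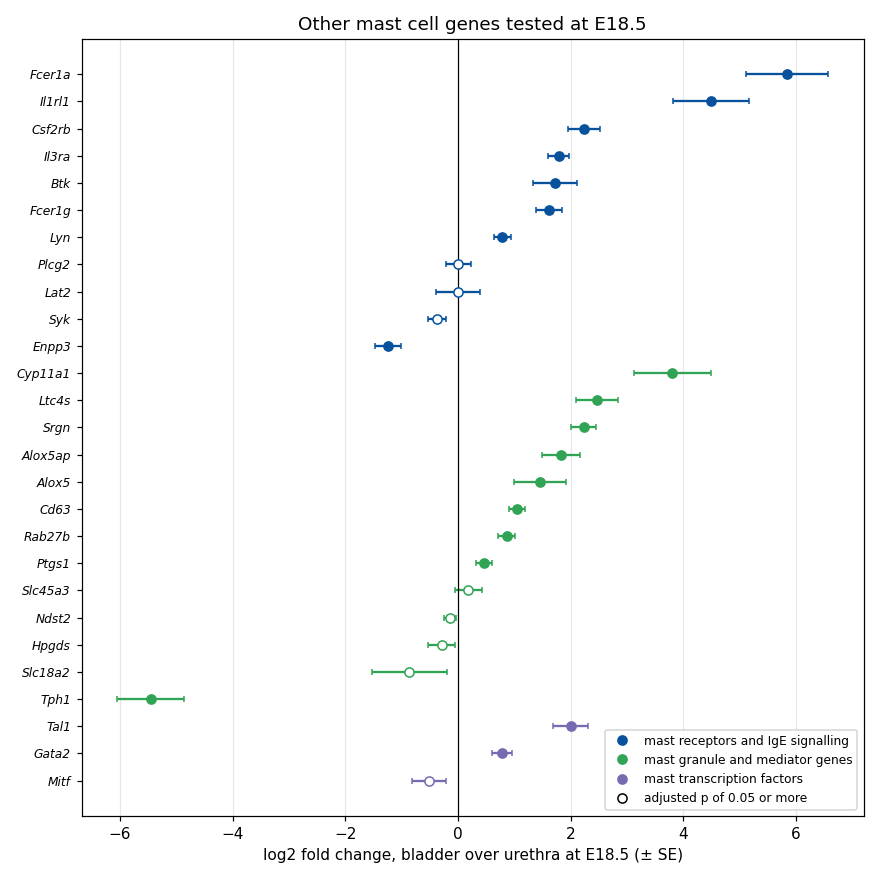
Log2 fold change of bladder over urethra at E18.5 (horizontal axis, ± SE) for the 27 further mast cell genes tested, coloured by list; filled points passed an adjusted p of 0.05. Fcer1a lies farthest toward bladder (5.84) and Tph1 farthest toward urethra (-5.46).

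With the mesenchyme score as a covariate none of the 27 passed in edgeR, and 8 had an unadjusted p under 0.05. Without the covariate DESeq2 also called 19. The summed level of the receptor list was 113 and 89.8 CPM in bladder and urethra (1.26-fold) and that of the granule list 1149 and 607 CPM (1.89-fold), with no overlap. Most of the granule sum was Cd63 (616 and 285 CPM) and Rab27b (412 and 218 CPM), which are not particular to mast cells.

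At E14.5, 22 of the further genes were tested, 6 higher in bladder and 5 in urethra, beside 23.1 and 20.9% of all genes. The bladder side held Plcg2, a lipase that relays receptor signals (17.0 and 6.68 CPM, adjusted p = 0.000841), Rab27b, which moves granules to the membrane (535 and 91.2 CPM, adjusted p = 0.00158), and Cd63, a granule membrane protein (311 and 185 CPM, adjusted p = 0.00212). The urethral side held Hpgds, which makes prostaglandin D2 (0.770 and 8.83 CPM, adjusted p = 0.00262), Mitf (1.67 and 6.47 CPM, adjusted p = 0.00348) and Alox5, the first enzyme of leukotriene synthesis (0.0683 and 0.571 CPM, adjusted p = 0.00517). Gata2 was at 394 and 184 CPM (adjusted p = 0.0133), while Srgn (0.674 and 0.890 CPM, adjusted p = 0.538) and Fcer1g (0.698 and 0.905 CPM, adjusted p = 0.601) did not pass. Scaling by epithelial genes moved the median of all genes to -1.01 here and the split to 1 and 13, so no direction is drawn at E14.5.

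Between the stages in bladder 28 were tested, and 20 were higher and 3 lower at E18.5 (19.9 and 20.4% of all genes). Srgn went from 0.674 to 15.7 CPM (23.2-fold, adjusted p = 2.8e-05), Csf2rb, the shared beta chain of the interleukin-3 receptor, from 0.353 to 5.50 CPM (15.6-fold, adjusted p = 2.9e-05) and Ptgs1, a prostaglandin synthase, from 4.81 to 42.1 CPM (8.75-fold, adjusted p = 3.2e-05). Fcer1a was at least 30.4-fold higher and Fcer1g 11.1-fold (adjusted p = 0.000248). The 3 lower genes were Syk, a kinase of receptor signalling (25.4 to 16.5 CPM, adjusted p = 0.00414), Ndst2, an enzyme of heparin synthesis (48.8 to 39.3 CPM, adjusted p = 0.00695), and Gata2 (394 to 205 CPM, adjusted p = 0.0120). Epithelial scaling moved the median of all genes to 0.53 and the split to 20 and 0. With the mesenchyme covariate none passed in edgeR (8 at an unadjusted p under 0.05), and DESeq2 without it called 23.

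In urethra 10 of the 28 were higher and none lower at E18.5 (17.3 and 15.7% of all genes). Slc45a3 went from 0.902 to 4.88 CPM (adjusted p = 8.9e-05), Tph1 from 0.550 to 12.4 CPM (adjusted p = 0.000302) and Plcg2 from 6.68 to 18.01 CPM (adjusted p = 0.000437). Srgn was 3.60-fold higher (adjusted p = 0.00961) and Fcer1g 2.69-fold (adjusted p = 0.0482). Scaling by epithelial genes, which moved the median of all genes to -0.84, turned this split to 3 and 5. DESeq2 made 13 calls in the original scaling, 12 higher and 1 lower.

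Of the signals that feed mast cells, Kitl, which codes for stem cell factor, stood at 37.1 and 38.1 CPM in bladder and urethra at E14.5 and at 94.5 and 51.6 CPM at E18.5. It passed between tissues at E18.5 (log2 fold change 0.82, SE 0.15, adjusted p = 0.00293) and between stages in bladder (2.55-fold, adjusted p = 0.00676), not in urethra (adjusted p = 0.352), and its interaction did not pass (0.91, SE 0.49, adjusted p = 0.198). Il33, an alarm cytokine of epithelium and stroma, was higher at E18.5 in both tissues, by 5.17-fold in bladder (adjusted p = 0.00114) and 2.93-fold in urethra (adjusted p = 0.0176), and did not differ past the threshold between tissues at E18.5 (1.26-fold more in bladder, adjusted p = 0.314). Tslp, another epithelial cytokine, was at 2.91 and 0.911 CPM at E18.5 (adjusted p = 0.0147) and 11.7-fold higher than at E14.5 in bladder (adjusted p = 0.000306). Cxcl12, a chemokine of stroma, was at 188 and 115 CPM at E18.5 (adjusted p = 0.0421). At E14.5 Cxcl12 was higher in urethra (44.7 and 146 CPM, adjusted p = 0.0422), with overlapping libraries. With the mesenchyme covariate the E18.5 log2 values turned to -0.14 for Tslp and -0.86 for Cxcl12, and the bladder stage values to -0.23 for Il33 and -1.37 for Cxcl12.

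The enzymes that break down histamine stayed low. Hnmt, which methylates it inside cells, was at 1.60 and 2.78 CPM in bladder and urethra at E18.5 (adjusted p = 0.117) and was higher at E18.5 than at E14.5 in bladder (4.03-fold, adjusted p = 0.00779) and urethra (2.69-fold, adjusted p = 0.0381). Aoc1, which oxidises it outside cells, was at 0.218 and 0.492 CPM at E18.5 (adjusted p = 0.130).

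The 10 genes whose log2 CPM followed the mean of Cma1, Cpa3, Tpsb2, Mcpt4 and Ms4a2 most closely over the 14 libraries included Tbata, Clec12b, Trarg1, Sparc, Rbp4, Rap2a, Cd81, Serpina3n and Mchr1, with Pearson r of 0.978 to 0.964. They ranged widely in level. Sparc, a matrix protein, had 273 and 449 CPM in bladder and urethra at E14.5 and 2874 and 578 CPM at E18.5, and Clec12b 0.0115, 0.0301, 2.196 and 0.0764 CPM in the same order. The macrophage receptors Mrc1 and Cd163, chosen here after their values were seen, ranked 47 (r = 0.95) and 100 (r = 0.94). Csf1r, also of macrophages, ranked 880 (r = 0.83) and Ptprc, of leukocytes, 932 (r = 0.82). The basophil protease Prss34 ranked 92 (r = 0.94). Fcer1a ranked 109 of 18286 genes by this measure (r = 0.94), Col1a1 131 (0.94), Srgn 193 (0.92), Hdc 3954 (0.46) and Kit 17926 (-0.84).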

How the data were processed

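The deposited values are raw counts per gene symbol in 2 tables, 1 per stage, and the authors applied no normalization that can be seen in them. Per the submitters' processing notes, reads were handled with bcl2fastq, HISAT2 2.2.1 and SAMtools 1.9 on GRCm38. The library kit is directional per the labels; how reads were counted, and with which strand setting and annotation, is not stated in any source used here, and 96.4% of rows have the same start and end as GENCODE M21. The deposited length column gave exon lengths and was divided into CPM to give CPM per kilobase.

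Groups came from the labels. The design text gives 4 litters at E14.5, where the extraction notes give 3. Totals and genes detected are given above; replicates differed by a chi-square per gene of 10.3 to 105.9, so none was a repeat of another. Gene counts entered edgeR 4.0.16 (R 4.3.3) with TMM scaling, filterByExpr, the quasi-likelihood F test and Benjamini-Hochberg adjustment over all genes tested, at a threshold of 0.05. Standard errors were taken from the fold change and F. Tissues were compared within a stage; stages and the interaction were fitted on all 14 libraries. Log2 CPM used a prior count of 2. Folds are ratios of mean CPM; a group with 1 to 6 counts has a ratio of summed counts with an exact 95% interval on read pairs, and a group at 0 a minimum from 6 counts. The pipeline was tested on simulated data.

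The genes, the 41 further mast cell genes and the other lists were chosen with earlier results of these data known. Named among the 41 were up to 3 genes with the smallest adjusted p in each direction of a comparison, plus Gata1, Gata2, Mitf, Fcer1a, Fcer1g and Srgn; Kitl, Il33, Hnmt and Aoc1 were always named and others of their lists when called. The genes of like pattern pass over predicted symbols. A few genes that this rule names are not reported here. Alternatives were DESeq2 size factors, DESeq2 1.42.0, no filter, a filter of 1 CPM, scaling by 7 epithelial genes, the mesenchyme covariate, a replicate block and leaving out each library. RefSeq promoters and GENCODE transcripts gave the sequences.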

Additional observations from a re-analysis of the deposited data

Results flagged for a closer look

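Tpsb2 in E14.5 urethra stood at 0.682 CPM in replicate 3 and at 0 in the other 3 libraries of that group, a gap past the limit for 4 values. Of 9 groups of 4 libraries checked, 1 was singled out. Chance singles out about 1 in 20 groups of untied values, and with 3 libraries tied at 0 that rate cannot be applied here.

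Hdc moved in opposite directions with stage, with every E18.5 library beyond every E14.5 library of its tissue: its log2 change was 2.38 in bladder and -4.69 in urethra. The interaction was 7.08 (SE 1.59), given with no p because Hdc was chosen with its values known. The bladder change did not pass the threshold in the main edgeR fit, and passed it under scaling by 7 epithelial genes (2.84). With the mesenchyme covariate the changes were -3.28 in bladder and -4.43 in urethra, and the interaction was 1.15. Only the urethral one passed the threshold in that fit.

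The tissue difference changed with stage, by the interaction in edgeR with adjusted p under 0.05, for 16 of the 28 further mast cell genes tested (22.9% of all genes). Toward more bladder at E18.5 the named ones were Il1rl1, the interleukin-33 receptor (6.83, SE 1.08, adjusted p = 0.00163), Alox5 (4.51, SE 0.80, adjusted p = 0.00272), Csf2rb (3.65, SE 0.60, adjusted p = 0.00195), Srgn (2.74, SE 0.67, adjusted p = 0.0125) and Mitf (1.51, SE 0.51, adjusted p = 0.0471), as log2 differences. Toward more urethra they were Tph1 (-4.06, SE 0.95, adjusted p = 0.00981), Slc45a3 (-1.30, SE 0.33, adjusted p = 0.0149) and Plcg2 (-1.29, SE 0.29, adjusted p = 0.00823). The last 2 changed sign under scaling by epithelial genes and Mitf under the mesenchyme covariate. Il1rl1 had 112 to 151 counts in each E18.5 bladder library, 24 in all of E18.5 urethra, 10 in E14.5 bladder and 41 in E14.5 urethra.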

How the results depend on the processing

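The count of further mast cell genes past the threshold was 11 at E14.5, 19 at E18.5, 23 between stages in bladder, 10 in urethra and 16 for the interaction. Leaving out 1 library gave 10 to 14, 17 to 21, 21 to 24, 8 to 12 and 12 to 19, and without bladder E14.5 replicate 3 the E14.5 split turned from 6 and 5 to 6 and 8 (14 in all). The mesenchyme covariate gave 7, 0, 0, 11 and 0; all genes called then numbered 3 at E18.5, 315 between stages in bladder and 52 for the interaction, and the cause was not tested. Scaling by 7 epithelial genes gave 14 at E14.5 (1 and 13), 8 in urethra between stages (3 and 5), 20 in bladder (20 and 0) and 21 for the interaction (20 and 1), with the median of all genes at 1.36 in the last.

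Under that scaling single genes changed sign at E14.5 (Cd63 -0.23, Gata2 -0.020, Kit -0.51), between stages in bladder (Ndst2 0.23) and in the interaction (Kit 0.28, Plcg2 0.033, Slc45a3 0.050, Gata2 1.20). Under the mesenchyme covariate the log2 values that changed sign were Cxcl12 -0.86 and Tslp -0.14 at E18.5, Mitf -0.72, Il33 -0.23, Hdc -3.28 and Cxcl12 -1.37 between stages in bladder, and Mitf -0.53 and Cxcl12 -1.005 in the interaction; the cause was not tested.

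With the replicate block the counts were 12 at E14.5, 18 at E18.5 and 14 for the interaction, Hdc (-3.33) and Kit (0.47) were called at E14.5, and Ms4a2 (9.12) was no longer called in the interaction. The labels do not say whether a replicate number marks a litter. Libraries of 1 number correlated at -0.10 to 0.39 at E14.5 and -0.19 to 0.14 at E18.5, not all above 0.1, so the numbers were not taken to pair the libraries. DESeq2, DESeq2 size factors and the filters kept each of these counts within 1.5 times its value. At E14.5 Hdc was also called by DESeq2, with no filter, under epithelial scaling (-4.44) and without bladder replicate 3 or urethral replicate 1, and Kit by DESeq2, with its size factors and without bladder replicate 1. The bladder stage change of Hdc was called under epithelial scaling (2.84) and without E14.5 bladder replicate 3, urethral replicate 1 or urethral replicate 3. Low counts limit Ms4a2, Tpsab1 and the urethral proteases.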
